A study of Mus musculus with 2 samples.

Results

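Clustered histone genes were taken as every gene whose symbol starts with Hist1h, Hist2h, Hist3h or Hist4h in both deposited matrices, 67 of 31053 genes. They comprise 6 linker histone H1 genes, 18 H2A, 18 H2B, 12 H3 and 13 H4 genes, with 54 named Hist1, 10 Hist2, 2 Hist3 and 1 Hist4. The study profiled dendritic cells, antigen-presenting cells of the immune system, from the lungs of C57BL/6 mice aged 8 to 10 weeks by droplet single-cell RNA sequencing with the 10x Chromium kit. The cDC1 library holds cells sorted as XCR1+ and the cDC2 library cells sorted as CD172a+, in steady state and with no treatment or allele named in the labels. There was 1 library per sort, and how many mice were pooled for each was not stated in the labels. Library and sort therefore cannot be told apart, cells are not replicates, and no test between conditions was possible. Intervals are given at 95% and describe nothing beyond the counting of UMIs or cells.

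Histone proteins package DNA into nucleosomes, with H2A, H2B, H3 and H4 forming the core and H1 binding the linker DNA between cores. Clustered histone genes are known as the replication-dependent supply: their transcription rises in S phase, and most of their mRNAs carry no poly(A) tail but end after a short stem-loop that binds the protein encoded by Slbp. Several of these genes are also known to give polyadenylated transcripts in cells that no longer divide, and a kit that primes on poly(A), as the one used here does, captures such transcripts more readily than stem-loop ends.

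The stem-loop was looked for after the stop codon in the annotated transcripts (GENCODE vM21, GRCm38, the assembly also called mm10) as a 16-base inverted repeat with 6-base arms and a 4-base loop. Of the 67 genes, 41 held it, against 0.138% of the other protein-coding genes, and in another 13 members the annotated transcripts stop at the coding sequence, so that there was nothing to search. The repeat came in 4 forms. The first below was held by 26 members of the H1, H2A, H2B and H3 types, the second by 6 members, the third by 7 H4 genes and the last by 2 H4 genes. The sites are shown 5′ to 3′ on the sense strand of each gene with the repeat in capitals and up to 5 flanking bases, because they mark where the tail-less mRNA ends. Hist1h1c (chr13:23738808-23740367, plus strand) has the repeat 24 bases after its stop codon, and its annotated transcript runs on for 840 bases. Hist1h2ap (chr13:21833026-21833507, minus strand) has the same repeat 38 bases after the stop codon, and its annotated transcript ends 3 bases later. Hist1h3e (chr13:23561534-23562369, minus strand), Hist1h4d (chr13:23581598-23582735, plus strand) and Hist1h4j hold the other forms.
Hist1h1c: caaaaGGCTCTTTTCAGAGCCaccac
Hist1h2ap: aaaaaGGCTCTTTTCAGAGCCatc
Hist1h3e: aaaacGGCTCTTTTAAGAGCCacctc
Hist1h4d: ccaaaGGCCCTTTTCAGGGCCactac
Hist1h4j: ctaaaGGTCCTTTTCAGGACCaccac

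Cells were kept at 500 or more detected genes, 1000 or more UMIs (unique molecular identifiers, counted transcripts) and at most 10% mitochondrial UMIs, which left 2574 cells with 35071861 UMIs in the cDC1 library and 2835 cells with 38613693 UMIs in the cDC2 library. A cell was called cycling when Mki67, Top2a, Birc5, Cdk1, Ccna2 and Ube2c together had 4 or more UMIs. This gave 379 cycling cells in the cDC1 library (14.7%, 13.4 to 16.2) and 420 in the cDC2 library (14.8%, 13.5 to 16.2). Cycling cells were deeper, with a median of 18713 against 12460 UMIs in the cDC1 library and 19165 against 12090 in the cDC2 library. Close to the limit, 121 and 133 cells had 3 marker UMIs and 58 and 50 had 4. The summed level of 8 cDC1 markers was 2461 CPM (UMIs of a gene per 1000000 UMIs of the summed cells) in the cDC1 and 284 CPM in the cDC2 library, and that of 8 cDC2 markers was 180.5 and 3100 CPM, with none at 0. The libraries share 6 cell barcodes, 5 of them among kept cells. No doublet caller was run; without the 5 and 8 cells over 40000 UMIs the summed histone ratios given next were 7.53 and 8.73.

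Clustered histone genes together stood at 1456 CPM in cycling and 195 CPM in non-cycling cells of the cDC1 library, a ratio of 7.46 (7.22 to 7.71). Members of the cDC2 library stood at 1463 and 169.6 CPM, a ratio of 8.63 (8.35 to 8.91). Cycling cells held 65.6% and 69.95% of all histone UMIs but only 20.4% and 21.3% of all UMIs. The make-up of the sum differed between the classes. Hist1h2ap, an H2A gene, gave 50.7% and 46.7% of the histone UMIs of cycling cells but 10.9% and 8.61% of those of non-cycling cells, while the linker histone gene Hist1h1c gave 6.72% and 5.41% in cycling and 35.8% and 29.9% in non-cycling cells. Without these genes the sum was 621 against 104 CPM in the cDC1 library and 700 against 104 CPM in the cDC2 library.

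A gene was counted as measured in a library at 5 CPM or more over all its kept cells. A difference of 2-fold or more was then the criterion, a size with no test behind it. In each library 15 members were measured, 14 of them in both. In the cDC1 library 11 of the 15 were at least 2-fold higher in cycling cells, where 4.42% of all 7776 measured genes were, and 0 were 2-fold lower, where 0.592% were. In the cDC2 library 11 of 15 were higher against a background of 4.25%, and 0 were lower against 1.15%. In both libraries at once 10 of 14 were higher against 3.46%. The median ratio of the measured members was 6.33 and 4.63, and that of all measured genes 1.12 and 1.09. A member can reach 5 CPM through cycling cells alone, so the counting interval was also read for every member with a UMI. It lay wholly above 2-fold for 39 of 63 members in the cDC1 library and 41 of 62 in the cDC2 library, 37 of them in both, against 3.08% and 3.11% of all genes with a UMI. It included 1 for 16 and 12 members, 9 of them in both libraries. It lay wholly below 1 only for Hist3h2a in the cDC1 library.

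**Figure D1:**
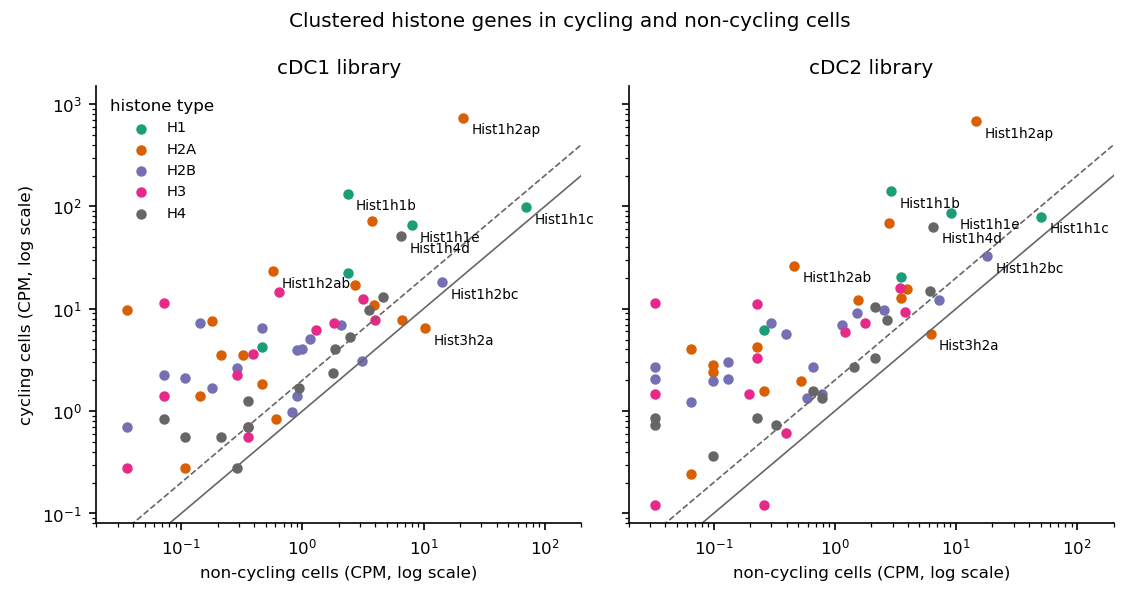
CPM of each clustered histone gene in non-cycling (x axis) and cycling cells (y axis) of each library, on log scales, coloured by histone type. The solid line marks equal levels and the dashed line a 2-fold difference. In each library 60 members are drawn and 7 with no UMI in 1 or both classes are not. Most points lie above the dashed line, with Hist1h2ap highest, while Hist1h1c, Hist1h2bc and Hist3h2a lie near the solid line.

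Marker levels of other cell types also differed between cycling and non-cycling cells. The 6 mature dendritic cell markers summed to 182 CPM in cycling and 420.4 CPM in non-cycling cells of the cDC1 library, with 5 of 6 measured genes 2-fold lower, and to 659.6 and 884 CPM in the cDC2 library, with 2 of 5 lower. The 4 neutrophil markers stood at 1.12 and 58.5 CPM and at 9.14 and 519 CPM. The 4 NK and T cell markers stood at 0.280 and 17.8 CPM in the cDC1 library and, the other way round, at 65.8 and 3.78 CPM in the cDC2 library. The 8 macrophage markers stood at 20.3 and 26.8 CPM and, with 3 of 6 measured genes 2-fold lower, at 194 and 317 CPM. The 6 monocyte markers stood at 238 and 181 CPM and, with 3 of 5 lower, at 282 and 472 CPM. No marker of these lists was at 0. These values moved with the classes beside the histone genes. Without cells passing gates for C1q, B cell, neutrophil or NK genes the summed histone ratios were 7.50 (cDC1) and 8.93 (cDC2). The part of mature dendritic cells in the histone ratios was not tested.

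Linker histone genes ranged widely. Summed, they were 3.905-fold and 5.015-fold higher in cycling cells. Hist1h1c gave 69.9 of the 83.02 CPM of this sum in non-cycling cells of the cDC1 library, and 50.7 of 66.63 CPM in the cDC2 library. Hist1h1b rose from 2.36 CPM in non-cycling to 133.6 CPM in cycling cells of the cDC1 library, a ratio of 56.6 (44.04 to 73.7), and from 2.93 to 141.5 CPM in the cDC2 library, a ratio of 48.3 (38.9 to 60.7). Hist1h1c, in contrast, was the most abundant clustered histone gene of non-cycling cells, at 69.9 CPM (cDC1) and 50.7 CPM (cDC2). In cycling cells it stood at 97.9 and 79.2 CPM, so that its ratios were 1.40 (1.28 to 1.53) and 1.56 (1.42 to 1.71) and lay under 2-fold in both libraries. As mean UMIs per cell, with no scaling to the depth of the cells, they were 2.08 and 2.42. Hist1h1e stood between them, at 7.98 and 65.1 CPM in the cDC1 library (8.16-fold; 6.94 to 9.61) and 9.18 and 86.5 CPM in the cDC2 library (9.43-fold; 8.20 to 10.9). Hist1h1d was 9.54-fold and 5.80-fold higher in cycling cells, from 2.36 and 3.55 CPM. Of the remaining H1 genes, Hist1h1a was below 5 CPM, with ratios of 9.03 and 23.6, and Hist1h1t, the testis linker histone, had 6 UMIs and 1 UMI, all in cycling cells.

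H2A genes, which code for a core histone that pairs with H2B, gave the largest summed ratio of the 5 types, 17.7 (16.7 to 18.8) in the cDC1 library and 24.7 (23.1 to 26.3) in the cDC2 library. The H1 sum of non-cycling cells and the H2A sum of cycling cells each rest largely on a single gene. This order of types therefore need not hold for their other members. Hist1h2ap gave 738 of the 904.1 CPM of the H2A sum in cycling cells of the cDC1 library. Its level was 21.2 CPM in non-cycling cells there, a ratio of 34.8 (31.97 to 37.96). Its cDC2 levels were 14.6 and 684 CPM, a ratio of 46.8 (42.5 to 51.7). Single cycling cells held up to 168 and 111 of its UMIs, and single non-cycling cells up to 20 and 23. Hist1h2ab had the largest ratio of the members measured in the cDC2 library, 57.2 (33.3 to 106), and 40.6 (24.3 to 72.7) in the cDC1 library, resting on 14 and 16 UMIs in non-cycling cells. Hist1h2ae was 19.3-fold and 24.3-fold higher in cycling cells, where it stood at 71.7 and 68.9 CPM. Hist1h2ac, at 10.8 and 15.5 CPM in cycling cells, was 2.79-fold and 3.92-fold higher, and 1.89-fold in the cDC1 library with cycling cells at 2 or more marker UMIs. Hist2h2ac was 6.33-fold higher in the cDC1 library and, below 5 CPM over all cells of the cDC2 library, 7.88-fold higher there.

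The remaining measured H2A genes had smaller ratios in at least 1 library. Hist2h2aa1 stood at 6.62 CPM in non-cycling and 7.84 CPM in cycling cells of the cDC1 library, a ratio of 1.18 (0.862 to 1.61), but at 3.55 and 12.8 CPM in the cDC2 library, a ratio of 3.60 (2.73 to 4.76). Its last 300 transcript bases are shared in full with Hist2h2aa2, which had 0 UMIs in both libraries, so the pair cannot be told apart in these counts. Hist3h2a was the only measured member with a level below its non-cycling level in both libraries, at 10.3 and 6.44 CPM in the cDC1 library (0.627-fold; 0.449 to 0.858) and 6.18 and 5.73 CPM in the cDC2 library (0.926-fold; 0.658 to 1.28). Its cDC2 interval included 1, and as mean UMIs per cell, a scale on which the deeper cycling cells count for more, the ratios were 0.928 and 1.44. Hist3h2a lies on the same strand as Trim17 and overlaps it in the annotation.

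H2B genes had the smallest summed ratio, 2.67 (2.38 to 3.01) and 3.04 (2.77 to 3.33). Hist1h2bc alone gave 14.2 of the 25.45 CPM of this sum in non-cycling cells of the cDC1 library. In the cDC2 library it gave 17.96 of 33.64 CPM. Only 1 and 2 of the 18 H2B genes were measured, and none of these passed the 2-fold rule. Hist1h2bc was the only one measured in both libraries. It stood at 14.2 CPM in non-cycling and 18.2 CPM in cycling cells of the cDC1 library (1.28-fold; 1.04 to 1.57) and at 17.96 and 32.8 CPM in the cDC2 library (1.83-fold; 1.57 to 2.12). Its cDC2 ratio was 2.09 without gated cells and 2.83 as mean UMIs per cell, past the limit. Hist3h2ba, an H2B gene beside Hist3h2a, stood at 3.12 and 3.08 CPM in the cDC1 library and 7.24 and 12.3 CPM in the cDC2 library (1.70-fold; 1.33 to 2.16), and its cDC2 ratio was 2.04 with cycling cells at 8 or more marker UMIs and 2.64 as mean UMIs per cell. The other H2B genes were too low to be measured, and their ratios ranged widely. Intervals lay wholly above 2-fold in both libraries for Hist1h2bb, Hist1h2be, Hist1h2bg, Hist1h2bh, Hist1h2bj, Hist1h2bk, Hist1h2bl, Hist1h2bm, Hist1h2bn, Hist1h2bp, Hist1h2br and Hist2h2bb. Hist1h2bj had 52 cycling and 4 non-cycling UMIs in the cDC1 library and 47 and 12 in the cDC2 library. Hist2h2be was at 1.19-fold (0.432 to 2.87) and 1.85-fold (0.844 to 3.85), and Hist1h2bf at 1.57-fold (0.671 to 3.37) and 2.26-fold (0.967 to 5.06), all of these intervals including 1.

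H3 and H4 genes, the core histones that form the central tetramer, lay between. The H3 sum was 5.47-fold and 5.87-fold higher in cycling cells and the H4 sum 3.96-fold and 4.68-fold. Hist1h3e was the only measured H3 gene, at 3.19 and 12.3 CPM in the cDC1 library (3.87-fold; 2.85 to 5.25) and 3.42 and 15.8 CPM in the cDC2 library (4.63-fold; 3.55 to 6.05). Its last 300 bases are shared with Hist1h3f. Hist1h3b, chosen here after its values were seen, was below the 5 CPM limit but had 82 and 94 UMIs in cycling cells against 2 and 1 in non-cycling cells. Hist1h4d was the most abundant H4 gene, at 6.52 and 51.4 CPM in the cDC1 library (7.89-fold; 6.59 to 9.48) and 6.51 and 63.2 CPM in the cDC2 library (9.71-fold; 8.23 to 11.5). Hist1h4i stood just above the limit of the rule, at 4.65 and 12.9 CPM in the cDC1 library (2.77-fold; 2.10 to 3.64) and 6.15 and 14.7 CPM in the cDC2 library (2.40-fold; 1.89 to 3.03), and at 1.84-fold in the cDC2 library with cycling cells at 2 or more marker UMIs. Hist4h4 was at 1.33-fold (0.719 to 2.35) and 1.54-fold (0.945 to 2.45).

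By cluster name, the Hist1 genes summed to a ratio of 8.44 and 9.65, the Hist2 genes to 2.67 and 4.15 and the Hist3 genes to 0.711 (0.541 to 0.923) and 1.34 (1.11 to 1.63). Nearest the 2-fold limit on its inside lay Hist1h4i and Hist1h2ac in the cDC1 library and Hist1h4i and Hist2h2aa1 in the cDC2 library, and on its outside Hist1h1c and Hist1h2bc in the cDC1 library and Hist1h2bc and Hist3h2ba in the cDC2 library. At the bottom of the range, 4 members had no UMI in either library (Hist1h2aa, Hist1h2ba, Hist1h2bq and Hist2h2aa2), Hist1h2ah had none in the cDC2 library, and 19 and 15 members had 1 to 20 UMIs.

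The level of the members was then followed over the marker sum in 8 ranges, the smallest of which held 66 cells. In the cDC1 library the summed histone level was 211 CPM in cells with 0 marker UMIs, 155 CPM with 3, 248.5 CPM with 4 to 7, 809 CPM with 8 to 15, 1967 CPM with 16 to 31 and 2501 CPM with 32 or more. The same ranges of the cDC2 library gave 181.5, 198, 223.5, 743, 1855 and 2274 CPM. In their summed level, cells with 4 to 7 marker UMIs were thus nearer to non-cycling cells than to those with 8 or more. Hist1h2ap went from 21.5 CPM with 0 markers to 38.3 CPM with 4 to 7 and 1327 CPM with 32 or more in the cDC1 library, and from 15.2 to 27.4 and 1080.1 CPM in the cDC2 library. Hist1h1b went from 2.20 CPM (1.52 to 3.08) to 10.8 (6.77 to 16.4) and 231 CPM, and from 3.99 to 6.73 and 229 CPM. Hist1h1c was lowest in the middle ranges. It stood at 76.4 CPM with 0 markers, 43.2 CPM (33.9 to 54.2) with 3, 71.7 CPM with 4 to 7 and 120.2 CPM with 32 or more in the cDC1 library. In the cDC2 library its lowest level was 39.4 CPM with 2 markers, between 56.3 CPM with 0 and 99.7 CPM with 32 or more. Hist3h2a stood at 11.7 CPM with 0 markers and 6.63 CPM with 32 or more in the cDC1 library, and at 7.18 and 5.80 CPM in the cDC2 library.

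**Figure D2:**
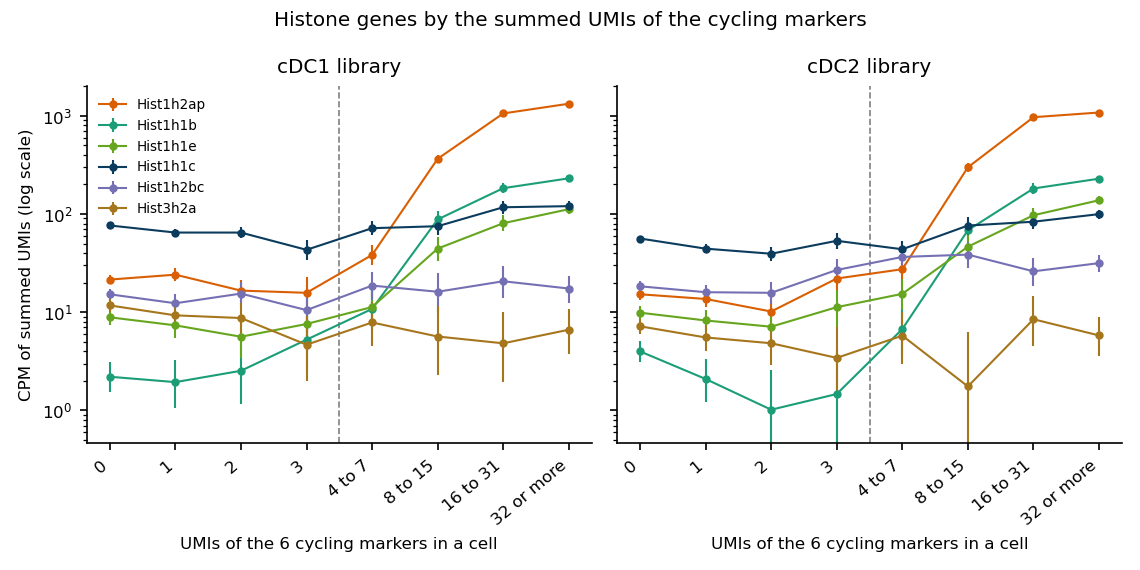
CPM (log scale) of 6 members in cells grouped by the UMIs of the 6 cycling markers, with 95% Poisson intervals, for each library. The dashed line marks the limit between non-cycling and cycling cells. Hist1h2ap and Hist1h1b are highest with 32 or more marker UMIs, at 1327 and 231 CPM in the cDC1 library, and Hist1h1c lies between 43.2 and 120.2 CPM there.

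Cycling cells were ordered by the share of S phase UMIs among the UMIs of an S phase list and a G2/M list of 26 genes each, and cut into 3 equal groups, named here S-rich, intermediate and G2/M-rich. These are ranges of a score, not phases. The limits lay at 75.7% and 48.2% in the cDC1 library, with 37 and 54 cells within 5 points of them, and at 66.7% and 39.1% in the cDC2 library, with 41 and 61. Over all cycling cells the histone sum was lowest in the S-rich group, at 307 CPM, against 2628 CPM in the intermediate and 1290.0 CPM in the G2/M-rich group of the cDC1 library. In the cDC2 library it was 743, 1998 and 1576 CPM. All 15 measured members of the cDC1 library and 10 of 15 in the cDC2 library were at least 2-fold lower in S-rich than in G2/M-rich cells, where 5.3% and 4.45% of all measured genes were. None was 2-fold higher in either library, where 2.43% and 3.14% of genes were. Over the 16 members measured in at least 1 library, counting intervals of this ratio lay wholly below 1 for 12 (cDC1) and 13 (cDC2). The groups also differed in the marker sum itself, whose median was 6, 22 and 33 UMIs in the cDC1 library and 7, 25.5 and 40 UMIs in the cDC2 library.

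Among cells with 16 or more marker UMIs, an alternative chosen after the data were seen, the direction turned. The histone sum was then 2833 CPM (2741 to 2927) in S-rich, 2945 CPM in intermediate and 1135 CPM (1078 to 1195) in G2/M-rich cells of the cDC1 library, and 2551, 2333 and 1534 CPM in the cDC2 library. Hist1h2ap went from 1600.0 to 475.5 CPM between the S-rich and G2/M-rich groups of the cDC1 library and from 1326 to 667 CPM in the cDC2 library. Hist1h1b went from 265 to 94.8 CPM and from 276.5 to 138.6 CPM. Hist1h1c was nearly level between these end groups, at 102 and 110.2 CPM (cDC1) and 105.5 and 84.8 CPM (cDC2), its intervals overlapping in each. In the intermediate group of the cDC1 library it was higher, at 144.6 CPM (124.6 to 166.9), above its S-rich interval (85.2 to 121.1). The intermediate group of the cDC2 library stood at 93.8 CPM. The S-rich group of all cycling cells held 15 and 32 cells with 16 or more marker UMIs, the G2/M-rich group 86 and 102. The part of the marker sum in the order over all cycling cells cannot be told apart from that of the position in the cycle.

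**Figure D3:**
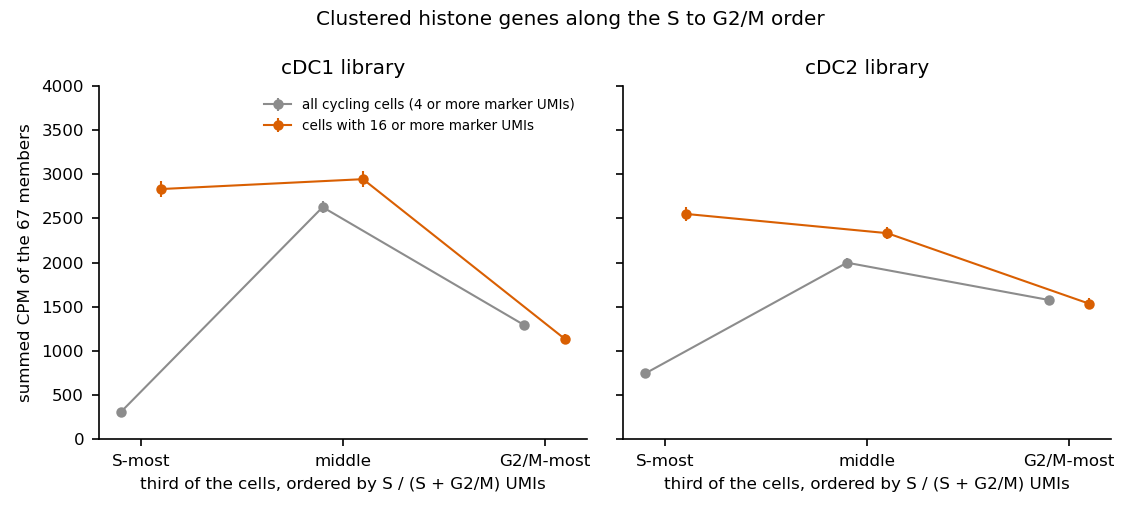
Summed CPM of the 67 members in 3 equal groups of cells ordered from S-rich (left, S-most) to G2/M-rich (right, G2/M-most), with 95% Poisson intervals. Grey points show all cycling cells and orange points cells with 16 or more marker UMIs. The S-most group is lowest among all cycling cells (307 and 743 CPM) but not among cells with 16 or more marker UMIs (2833 and 2551 CPM).

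In non-cycling cells 4 members stood at 10 CPM or more in the cDC1 library (Hist1h1c, Hist1h2ap, Hist1h2bc and Hist3h2a) and 3 in the cDC2 library (the same genes without Hist3h2a, which was at 6.18 CPM). Each cell was thinned to 5000 UMIs to compare shares of cells with a UMI, which left out 70 and 131 shallower non-cycling cells and 1 and 4 cycling cells. Hist1h1c was then seen in 21.4% of non-cycling cells (19.7 to 23.2) and 29.6% of cycling cells (25.1 to 34.5) of the cDC1 library, and in 17.6% (16.1 to 19.3) and 24.04% (20.01 to 28.4) in the cDC2 library. Without thinning the shares were 36.9% and 57.5%, and 31.5% and 51.9%. Hist1h2ap was seen in 8.99% of non-cycling and 46.3% of cycling cells, and in 5.38% and 52.4%. Without thinning these were 16.9% and 59.6%, and 11.5% and 62.1%.

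Free RNA in the droplets can also give a cell such UMIs, so cells with 5 or more UMIs of Fscn1, the gene of the actin-bundling protein of mature dendritic cells, and 0 marker UMIs served as a reference that should not divide. There were 46 and 37 such cells, with medians of 12139.5 and 9977 UMIs, and thinning left 43 and 36 of them. Hist1h2ap was then seen in 11.6% (3.89 to 25.1) and 19.4% (8.19 to 36.02). The non-cycling shares of Hist1h2ap lie at or below these. The reference cells belong to the non-cycling class themselves, and a cell that does not divide can still hold histone mRNA. The shares therefore cannot tell free RNA from expression, and no expression outside cycling cells is read from them. Hist1h1b was seen in 0.988% and 1.31% of non-cycling cells, against 1 of 43 reference cells and 0 of 36, where 3 cells with a UMI would be a share of 8.33%. Hist1h1c was seen in 18.6% (8.39 to 33.4) and 22.2% (10.1 to 39.2) of the reference cells. These intervals contain its non-cycling shares, so at this number of cells the shares alone do not set non-cycling cells apart from the reference. The part of free RNA in the non-cycling levels was not tested.

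Non-cycling cells with more S phase transcripts did not stand higher in histone level. In cells with 0 marker UMIs the histone sum was 212 CPM with at most 2 UMIs of the S phase list, 214 CPM with 3 to 5 and 194.5 CPM (173 to 218) with 6 or more in the cDC1 library, and 190.5, 172 and 160.3 CPM (142 to 180.0) in the cDC2 library. Cells with 6 or more S list UMIs held 13.7% and 14.6% of the non-cycling UMIs of Hist1h2ap and 13.1% and 15.7% of all non-cycling UMIs, close shares. For Hist1h1c these were 10.9% and 12.0%. These ranges of the S list were chosen after the data were seen. Cells with 1 to 3 marker UMIs stood slightly below those with 0, at 176 against 211 CPM and 156 against 181.5 CPM.

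Non-cycling cells were also compared by state. Of the genes measured between Fscn1-high cells (74 and 54 cells) and the other non-cycling cells outside all gates (2093 and 2174 cells), 1 of 7 members was 2-fold higher in Fscn1-high cells of the cDC1 library, where 10.7% of all genes were, and 3 of 8 in the cDC2 library, where 9.62% were. None was 2-fold lower in either, where 18.6% and 11.5% of genes were. The higher count of the cDC1 library is near its background share. Hist1h2bc was the member that passed in both libraries. It stood at 41.5 CPM (29.7 to 56.6) in Fscn1-high and 13.2 CPM in other cells of the cDC1 library, 3.15-fold higher (2.22 to 4.38), and at 69.9 CPM (51.6 to 92.7) and 14.8 CPM in the cDC2 library, 4.73-fold higher (3.43 to 6.38). In Fscn1-high cells with 0 marker UMIs it was at 42.8 and 74.6 CPM. Hist1h2ap was 5.56-fold higher (3.99 to 7.58) in Fscn1-high cells of the cDC2 library, on 46 UMIs, and 1.41-fold (0.925 to 2.05) in the cDC1 library. Hist1h4i was 2.45-fold higher (1.15 to 4.63) in the cDC2 library, on 10 UMIs. In those with 0 marker UMIs Hist1h2ap was at 35.7 CPM (21.8 to 55.1) and 41.2 CPM (23.5 to 66.8, on 16 UMIs in 37 cells). Hist1h1c was 0.768-fold (0.572 to 1.01) in the cDC1 library and 1.99-fold (1.53 to 2.55) in the cDC2 library. With 0 marker UMIs it was at 78.5 CPM (57.01 to 105) in the cDC1 library and at 82.3 CPM (56.3 to 116) in the cDC2 library. The cDC1 interval contains the 70.3 CPM of other cells, which were not limited to 0 marker UMIs. Hist3h2ba, below 5 CPM in this cDC1 comparison, was 4.94-fold higher there (2.51 to 8.99), on 13 UMIs. In the cDC2 library it was 0.577-fold (0.118 to 1.71). The comparison of Fscn1-high with other cells was added after the data were seen.

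Among other gated states, 121 C1q-high cells of the cDC2 library, with genes known from macrophages, held 37.7 CPM of Hist1h2bc (29.5 to 47.5) and 50.3 CPM of Hist1h1c (40.7 to 61.4). The 32 cells of the cDC2 library high in S100a8 and S100a9, neutrophil genes, held 169 CPM of Hist1h1c (113 to 243) and 87.6 CPM of Hist1h2bc (49.01 to 144), on 29 and 15 UMIs and at a median depth of 2938.5 UMIs. The 37 cells with B cell genes held 88.7 CPM of Hist1h1c (57.4 to 131) and 106.5 CPM of Hist1h2ap (71.8 to 152). Their median depth was 3693 UMIs. They also held 24.85 CPM of Hist1h1b (9.99 to 51.2), on 7 UMIs, against 2.92 CPM in cells outside all gates. Whether the marker limit missed cycling cells at this depth was not tested. The other non-cycling cells carried 70.3 and 48.3 CPM of Hist1h1c, so the level of this gene did not rest on the gated cells.

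**Figure D4:**
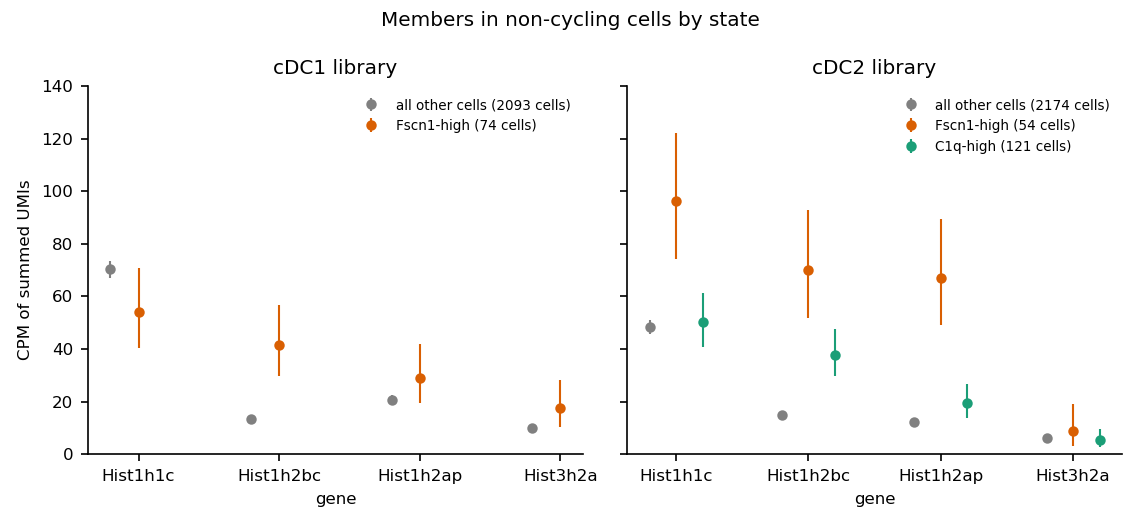
CPM of Hist1h1c, Hist1h2bc, Hist1h2ap and Hist3h2a in non-cycling cells outside all gates (grey), Fscn1-high cells (orange) and, in the cDC2 library, C1q-high cells (green), with 95% Poisson intervals. States with under 20 cells are not drawn. Hist1h2bc is higher in Fscn1-high than in other cells of both libraries, at 41.5 and 69.9 CPM.

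Between the libraries 1 member passed the rule of size. Genes were compared within a class at 5 CPM or more over that class of both libraries. Among cycling cells 1 of 31 members, Hist3h2ba, was 2-fold apart, where 11.6% of all measured genes were. Among non-cycling cells it was 1 of 9, again Hist3h2ba, where 13% of genes were, so the count is near the background. This H2B gene was higher in the cDC2 library, 3.99-fold in cycling (2.50 to 6.66) and 2.32-fold in non-cycling cells (1.80 to 3.01). Hist1h2ap had cDC2 over cDC1 ratios of 0.927 (0.892 to 0.962) in cycling and 0.689 (0.608 to 0.781) in non-cycling cells, Hist1h1b of 1.06 (0.971 to 1.16) in cycling cells, and Hist1h1c of 0.809 (0.726 to 0.902) and 0.726 (0.679 to 0.777). Hist1h2bc was 1.80-fold higher (1.46 to 2.24) in cycling cells of the cDC2 library.

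The members also differ in where their annotated transcripts end. In 21 of them the transcript ends within 100 bases of the stem-loop, a limit chosen after the data were seen, in 20 it runs further, and in 26 no stem-loop was found in the annotated end. Genes of the first kind summed to 40.1 CPM in non-cycling and 838 CPM in cycling cells of the cDC1 library (20.9-fold) and to 28.02 and 795 CPM in the cDC2 library (28.4-fold). Genes whose transcripts run further summed to 123 and 381 CPM (3.09-fold) and 106.5 and 413 CPM (3.88-fold). The 26 genes with no stem-loop found summed to 31.8 and 237 CPM (7.46-fold) and 35.06 and 255 CPM (7.28-fold). Hist1h1b gave 133.6 and 141.5 CPM of their cycling sums. It is among the 13 members whose annotated transcripts stop at the coding sequence, so this class is not a type of transcript end. The sums of both classes with a stem-loop also rest largely on 1 gene each. Without Hist1h2ap and Hist1h1c their ratios were 5.33 and 5.29 in the cDC1 library and 8.30 and 5.98 in the cDC2 library. Medians were taken over members with more than 20 UMIs, a limit that cycling cells alone can pass. For short ends, longer ends and no stem-loop found they were 13.8, 3.93 and 7.82 in the cDC1 library (11, 16 and 17 genes). In the cDC2 library they were 18.8, 4.10 and 14.3 (14, 16 and 17 genes).

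A poly(A) signal within 60 bases of an annotated transcript end was found for 17 members, among them Hist1h1c, Hist3h2a, Hist3h2ba, Hist1h4i and Hist1h2ae. They summed to a ratio of 2.17 and 2.61, and the 50 others to 13.6 and 14.7. Without Hist1h1c and Hist1h2ap these were 3.72 and 4.17 against 7.09 and 7.96. Of the other members at 10 CPM or more in non-cycling cells, Hist1h2ap has the stem-loop and no such signal, Hist1h2bc has neither the signal nor the stem-loop in its annotated end. Hist1h2ae has the signal and ratios of 19.3 and 24.3. The annotation lists possible ends, and which ends were captured was not tested.

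**Figure D5:**
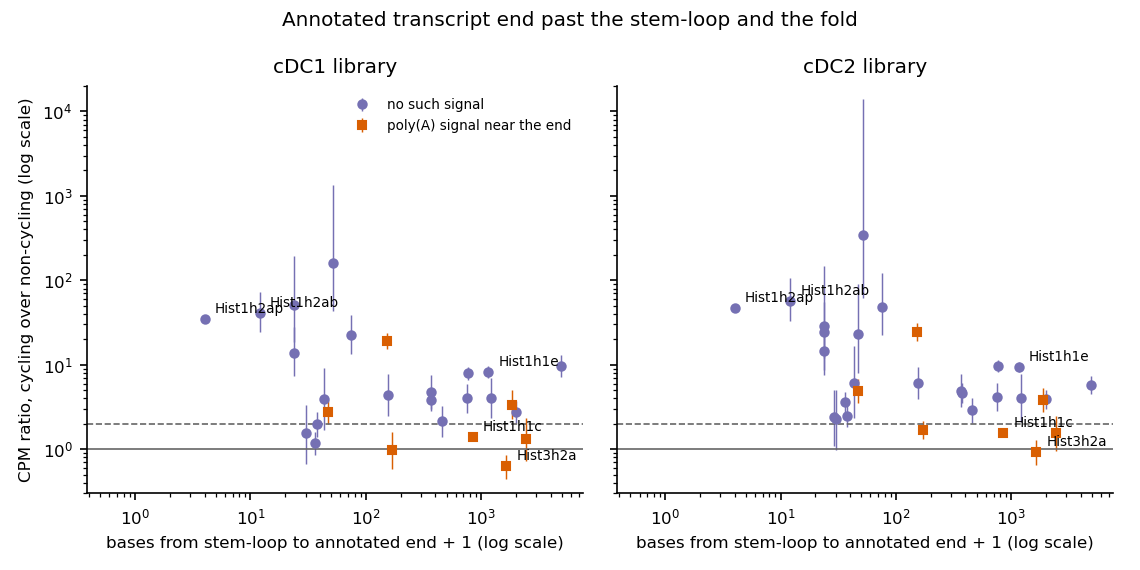
Ratio of CPM in cycling over non-cycling cells (log scale, with 95% intervals) against the number of bases between the stem-loop and the annotated transcript end, plus 1 (log scale), for members with a stem-loop and more than 20 UMIs (27 in the cDC1 and 30 in the cDC2 library; 14 and 11 not drawn), a limit that a gene can pass through cycling cells alone. Orange squares have a poly(A) signal near the end. Hist1h2ap and Hist1h2ab, with short ends, lie near the top, and Hist1h1c and Hist3h2a, with long ends and a signal, near a ratio of 1. The ranges overlap. In the cDC1 library ratios ran from 1.18 to 160 for ends within 100 bases and from 0.627 to 19.3 for longer ends. In the cDC2 library they ran from 2.26 to 348 and from 0.926 to 24.3.

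Sequence shared between members limits the single values. Of windows of 100 bases in the last 300 transcript bases, every window was shared with another gene for 9 members, 50% or more for 29 members and none for 23 members. Hist1h2ap is among the 9, as each of its windows also occurs in other H2A genes, so its count can include UMIs of its paralogs or miss UMIs assigned to none. Hist1h1e is another, since its annotated transcript overlaps Hist1h2be and Gm11398 on the same strand. Hist1h1c, Hist1h1b, Hist1h2bc, Hist3h2a, Hist1h4d and Hist1h4i share no window.

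Promoter windows, 250 bases before to 50 after the annotated start, were found in RefSeq (GRCm38.p6) for 62 members and searched on both strands for 4 motifs. These were CCAAT and TATANA, which are common to many promoters. The H1 box, known from H1 genes, was searched as AAACACA. The octamer, known from H2B genes, was searched as ATTTGCAT. CCAAT was found in 53 of the 62, against 41.06% of all genes with a window, and TATANA in 50, against 27.9%. The H1 box was found in 9 members, 5 of them among the 6 H1 genes, against 8.22% of all genes. The octamer was found in 14, of which 7 were H2A and 7 H2B genes, against 1.97%. Some H2A and H2B genes lie head to head, as Hist1h2ag (minus strand, up to 22042944) and Hist1h2bj (plus strand, from 22043214) do. Their windows can cover the same bases, so 1 site can count for both genes. CCAAT was found in 3 of 12 H4 genes. The windows of 2 H1 genes at opposite ends of the ratios and of Hist1h2ap are shown on each gene's own strand, with matches in capitals, joined where they overlap. Hist1h1b (chr13:21780576-21780875, minus strand, ratios 56.6 and 48.3) and Hist1h1c (chr13:23738557-23738856, plus strand, ratios 1.40 and 1.56) both hold the H1 box, CCAAT and TATANA, so these letters do not separate them. Hist1h2ap (chr13:21833426-21833725, minus strand) holds CCAAT and TATANA but neither the H1 box nor the octamer.
Hist1h1b: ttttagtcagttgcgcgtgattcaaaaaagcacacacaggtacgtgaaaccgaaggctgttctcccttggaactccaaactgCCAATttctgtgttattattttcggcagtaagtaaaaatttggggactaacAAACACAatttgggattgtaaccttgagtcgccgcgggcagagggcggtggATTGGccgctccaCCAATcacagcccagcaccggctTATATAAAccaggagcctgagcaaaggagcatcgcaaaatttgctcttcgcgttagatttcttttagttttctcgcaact
Hist1h1c: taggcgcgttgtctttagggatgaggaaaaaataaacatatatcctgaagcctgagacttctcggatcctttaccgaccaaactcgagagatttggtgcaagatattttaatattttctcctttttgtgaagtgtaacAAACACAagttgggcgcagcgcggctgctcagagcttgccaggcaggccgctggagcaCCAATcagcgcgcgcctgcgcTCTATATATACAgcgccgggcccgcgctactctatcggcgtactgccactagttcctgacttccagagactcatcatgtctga
Hist1h2ap: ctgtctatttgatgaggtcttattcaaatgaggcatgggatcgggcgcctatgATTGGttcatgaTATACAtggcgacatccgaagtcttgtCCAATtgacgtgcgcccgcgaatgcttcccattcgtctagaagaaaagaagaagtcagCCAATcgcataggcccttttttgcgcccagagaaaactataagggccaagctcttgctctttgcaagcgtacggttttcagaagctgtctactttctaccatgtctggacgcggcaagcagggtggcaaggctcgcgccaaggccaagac

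Histone genes outside the clusters code for variants made through the whole cell cycle or for special chromatin. In cycling cells 4 of 9 measured genes were 2-fold higher in the cDC1 library and 6 of 10 in the cDC2 library. Of all measured genes 4.42% and 4.25% were. H2afx, whose product marks DNA breaks, was 5.61-fold (5.15 to 6.11) and 9.30-fold (8.49 to 10.2) higher, and H2afv 5.44-fold and 5.15-fold. Cenpa, the centromere variant of H3, was 2.12-fold and 2.57-fold higher. H3f3a, a gene of the replacement histone H3, stood at 1309 and 1673 CPM in non-cycling cells and was 1.32-fold and 1.13-fold higher in cycling cells. H2afz, which codes for the variant of H2A at many promoters, was 1.60-fold and 2.19-fold higher, from 1872 and 1203 CPM. The summed variants stood at 4889 and 4719 CPM in non-cycling cells, against 195 and 169.6 CPM for all 67 clustered genes.

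Genes of factors that make histone mRNA or place histones were read in the same way. The background for each list here is again the 4.42% and 4.25% of all measured genes that were 2-fold higher. Of genes for transcription and 3′ end processing of clustered histone mRNA, 2 of 18 measured were 2-fold higher in cycling cells of the cDC1 library (Lsm11, 2.42-fold, and Nelfe, 2.14-fold) and 0 of 17 in the cDC2 library. Slbp, the gene of the stem-loop binding protein, was 1.79-fold (1.61 to 1.99) and 1.21-fold (1.08 to 1.35) higher. Of 24 measured chaperones and modifiers, 7 were higher in each library, led by Asf1b (23.7-fold and 23.3-fold) and Chaf1a (11.1-fold in both), which hand new H3 and H4 to replicating DNA. All 23 measured genes of the S phase list were higher in both libraries, with median ratios of 6.48 and 5.58, and all 16 and 15 measured G2/M genes, with 36.5 and 33.98.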

How the data were processed

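Droplet single-cell RNA libraries of lung cDC1 and cDC2, 1 of each, were analysed from raw UMI counts per gene and barcode as the authors deposited them. Per the submitters' processing notes, Cell Ranger 3.2, Seurat and mm10 were used; per the file headers, the software version was 3.0.2. For the annotation release, the handling of reads shared by paralogs and the selection of barcodes, the sources used here give nothing. Barcodes with under 500 genes, under 1000 UMIs or over 10% mitochondrial UMIs were left out (365 of 2939 and 210 of 3045). UMIs were summed over the cells of a class and scaled to a total of 1000000 (CPM), with exact Poisson intervals for levels, exact conditional binomial intervals for ratios and exact Clopper-Pearson intervals for shares, all at 95%. PCR copies are collapsed by the UMIs, but cells of 1 library are no replicates, so calls are by size alone (2-fold, genes at 5 CPM or more). Total UMIs of kept cells were 35071861 and 38613693. Shares of cells with a UMI were compared after thinning each cell to 5000 UMIs. The calling script was tested on simulated data. Python 3.11.15, numpy 2.4.6, scipy 1.17.1, pandas 2.3.3 and matplotlib 3.10.9 were used.

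The members and all gene lists were chosen with earlier results of these data known. Members named with full values were the 8 highest in non-cycling cells and the 8 of largest ratio among those measured in both libraries. Named too were any 2-fold lower in cycling cells or 2-fold apart between libraries, and the 2 nearest each side of the 2-fold limit. Added examples are Hist1h1a, Hist1h1t, Hist1h2bf, Hist1h2bj, Hist1h3b, Hist2h2ac, Hist2h2be, Hist4h4 and the H2B genes named for intervals above 2-fold. Stem-loops were searched in annotated transcripts after the stop codon in place of genomic sequence, which was not used here. The 100-base limit of the end classes, the ranges of S list UMIs, the counts of intervals, the Fscn1-high comparison and the ordering of cells with 8 or 16 or more marker UMIs were chosen after the data were seen. Alternatives changed the marker limit, the non-cycling class, the scaling, the cell filters, the gates, the CPM limits and the fold.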

Additional observations from a re-analysis of the deposited data

Results flagged for a closer look

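Barcodes that the filter removed also held clustered histone UMIs, and they enter no comparison. In the cDC1 library 365 removed barcodes held 467 of them, 491.7 CPM (448 to 538), above the 3.16 CPM that 3 UMIs would give there, and 34 of these barcodes (9.32%) had 4 or more cycling marker UMIs. In the cDC2 library 210 removed barcodes held 201, 349.4 CPM (303 to 401), above 5.21 CPM, and 19 of them (9.05%) had 4 or more marker UMIs. Both levels lie between those of non-cycling and cycling kept cells.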

How the results depend on the processing

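Over 9 settings the ratios of 15 named members gave 270 values, of which 205 moved by less than their counting interval, 65 moved further and 0 of the called members changed side of equality. Hist3h2a in the cDC2 library, not called, ran from 0.776 to 1.44 and Hist3h2ba in the cDC1 library from 0.793 to 1.47. Hist1h1c, under 2-fold above, reached 2.08 and 2.42, and in the cDC2 library Hist1h2bc reached 2.83 and Hist3h2ba 2.64, while Hist1h4i in the cDC2 library went down to 1.84 and Hist1h2ac in the cDC1 library to 1.89. The summed ratio (7.46 and 8.63) was 4.50 and 5.31 with cycling cells at 2 or more marker UMIs, 9.75 and 10.9 at 8 or more, 6.91 and 8.06 against cells with 0 marker UMIs, and 11.05 and 13.4 as mean UMIs per cell. In the cDC2 library it was 8.18 against cells with at most 2 S list UMIs, 8.92 at up to 5% mitochondrial UMIs and 8.93 without gated cells. Members higher in cycling cells (11, 11 and 10 in both libraries) numbered 28, 28 and 25 when measured from 1 CPM and 2, 3 and 2 from 20 CPM, since other numbers of genes were tested. Members 2-fold apart between libraries (1 and 1) numbered 2 in cycling cells at up to 5% mitochondrial UMIs, 4 in cycling cells from 1 CPM, 0 and 0 from 20 CPM, 6 and 3 at 1.5-fold and 0 in non-cycling cells at 3-fold. Members seen in non-cycling cells (4 and 3) numbered 7 and 8 at 5 CPM and 2 and 1 at 20 CPM. The ratio of S-rich over G2/M-rich cells (0.238 and 0.472) turned to 1.30 and 1.17 among cells with 8 or more marker UMIs and to 2.50 and 1.66 with 16 or more; the cause was not tested. No paired analysis was possible because there is 1 library per group, and no library could be left out. Depth limits 19 and 15 members with 1 to 20 UMIs. Their ratios have wide intervals, though some of these lie wholly above 2-fold, as for Hist1h2bl in the cDC1 library (2.19 to 925).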
